A study of Homo sapiens with 52 samples.

Results

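The high mobility group (HMG) genes followed here encode small, abundant proteins of chromatin and were chosen by symbol. They are the HMG box genes HMGB1, HMGB2 and HMGB3, the AT-hook genes HMGA1 and HMGA2, and the nucleosome-binding genes HMGN1, HMGN2 and HMGN3, which makes 8 of the 46234 genes whose reads could be recovered. All 8 passed the filter on low values, as did 15598 genes in all. mRNA-seq of total RNA was done on WI-38 cells, normal human embryonic lung fibroblasts that stop dividing after a limited number of doublings. Cells were kept for 24 h in 0.0090% SDS, a detergent that damages the plasma membrane, in 75 mM KCl, which depolarizes the membrane and lets Ca2+ in, or in 250 nM doxorubicin (DXR), which damages DNA, and were then washed and cultured in fresh medium. The senescent states that follow are named PMD-Sen, Ca2+-Sen and DDR-Sen in the study. Cells were collected daily from day 0, the end of the treatment, to day 4 and then on day 6, day 8 and day 16, and set beside untreated cells at a population doubling level of 32 to 46 and cells in replicative senescence (RS) at a level of about 52. Each of the 26 groups held 2 libraries, which are called the larger and the smaller library by their depth, and pairs of values are given in that order. The untreated cells were 1 group for all days and not matched in time, so the 25 comparisons with untreated cells share the same 2 control libraries. The study describes the 2 libraries of a group as independent samples, and the sources do not say whether these were separate cultures, so the p-values measure only the spread between these samples, which may be technical.

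The HMGB proteins carry HMG boxes that bend DNA, and HMGB1 can also leave the nucleus of stressed or senescent cells and act outside as an alarmin. HMGB2 is abundant in dividing cells and is known to fall early on the way into senescence. The HMGA proteins bind AT-rich DNA through AT-hooks. HMGA2 belongs to fetal and proliferating tissue and is repressed by let-7 microRNAs, and both HMGA proteins are known to gather in the heterochromatin foci of senescent fibroblasts. The HMGN proteins bind the nucleosome itself and loosen chromatin by competing with linker histone H1. All measurements below are of RNA and say nothing of the amount or place of the proteins.

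In the reference annotation (GENCODE, GRCh38), HMGB1 lies on the minus strand of chromosome 13 at 30456704 to 30617597, HMGB2 on the minus strand of chromosome 4 at 173331695 to 173335125, and HMGB3 on the plus strand of chromosome X at 150980509 to 150990775. HMGA1 lies on the plus strand of chromosome 6 at 34236873 to 34246231 and HMGA2 on the plus strand of chromosome 12 at 65824131 to 65966295. HMGN1 lies on the minus strand of chromosome 21 at 39342315 to 39349647, HMGN2 on the plus strand of chromosome 1 at 26472450 to 26475972, and HMGN3 on the minus strand of chromosome 6 at 79201245 to 79234738.

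The promoters of 4 genes are shown because these genes were below both untreated libraries in every treated group and in RS. Each window runs from 250 bases before to 50 after a RefSeq transcription start (GRCh38.p14), 5′ to 3′ on the strand of the gene. Of the 8 genes, 6 matched the promoter table, with 10 windows in all. HMGB2 and HMGA2 are named only. Capitals mark motifs found on either strand, namely CCAAT (the CCAAT box), TTTGAA and TTCGAA (the cell cycle homology region), TTCCCGC and TTGGCGC (E2F) and GGGCGG (the GC box), with overlapping motifs merged into 1 run.
HMGB1, chr13:30465887-30466186, minus strand: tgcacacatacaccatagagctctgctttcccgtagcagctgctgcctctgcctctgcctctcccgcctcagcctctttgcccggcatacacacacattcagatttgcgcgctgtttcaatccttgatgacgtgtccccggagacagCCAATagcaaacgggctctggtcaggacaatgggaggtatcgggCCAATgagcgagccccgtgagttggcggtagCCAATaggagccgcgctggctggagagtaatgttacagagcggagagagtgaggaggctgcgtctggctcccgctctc
HMGB3, chrX:150983085-150983384, plus strand: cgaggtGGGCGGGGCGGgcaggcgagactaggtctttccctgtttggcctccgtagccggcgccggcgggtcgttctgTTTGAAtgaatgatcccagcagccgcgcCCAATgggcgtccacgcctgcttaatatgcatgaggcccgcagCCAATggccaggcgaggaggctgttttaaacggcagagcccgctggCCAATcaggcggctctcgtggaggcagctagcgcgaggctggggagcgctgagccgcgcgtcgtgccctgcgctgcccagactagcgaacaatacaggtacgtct
HMGN1, chr21:39349039-39349338, minus strand: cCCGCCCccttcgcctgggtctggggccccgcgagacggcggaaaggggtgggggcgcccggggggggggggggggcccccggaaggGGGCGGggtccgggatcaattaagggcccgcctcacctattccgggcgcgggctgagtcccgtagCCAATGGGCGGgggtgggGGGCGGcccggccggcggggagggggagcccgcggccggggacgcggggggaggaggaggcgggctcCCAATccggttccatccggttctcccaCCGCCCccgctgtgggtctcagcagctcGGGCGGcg
HMGN2, chr1:26472190-26472489, plus strand: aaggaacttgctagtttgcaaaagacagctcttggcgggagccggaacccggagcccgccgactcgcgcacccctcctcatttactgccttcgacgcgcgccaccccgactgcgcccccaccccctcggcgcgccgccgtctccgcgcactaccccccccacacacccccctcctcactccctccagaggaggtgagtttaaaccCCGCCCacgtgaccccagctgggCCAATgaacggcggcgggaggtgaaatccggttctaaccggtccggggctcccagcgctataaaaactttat
In the windows shown, the CCAAT letters occurred 3 times for HMGB1, 3 times for HMGB3, 2 times for HMGN1 and 1 time for HMGN2. At least 1 was held by 34.6% of all 35116 promoter windows of the table. The GC box letters occurred 2 times in the HMGB3 window shown, 6 times in that of HMGN1 and 1 time in that of HMGN2, against 45.0% of all windows. HMGB1 and HMGB3 also had windows that are not shown, with other counts. The HMGB1 window at 30465191 to 30465490 held the GC box letters 9 times, CCAAT 1 time and TTTGAA 1 time. Its window at 30617548 to 30617847 held the GC box letters 2 times and CCAAT 0 times. The HMGB3 window at 150984141 to 150984440 held the GC box letters 11 times and CCAAT 0 times. CCAAT was also present for the genes that were not below the untreated libraries in every group. The HMGN3 window held it 2 times and the GC box letters 0 times. The HMGA1 window at 34236623 to 34236922 held CCAAT 1 time and the GC box letters 5 times. The HMGA1 window at 34238541 to 34238840 held CCAAT 1 time and the GC box letters 0 times. Of the windows shown, TTTGAA occurred 1 time, in that of HMGB3, and was held by 15.2% of all windows. None of the 10 windows held TTCGAA or the E2F letters. TTCGAA occurred in 1.45% of all windows. Of the E2F letters, TTCCCGC was in 6.55% of all windows, and the share for TTGGCGC was 3.04%. A match of letters is a description only and no evidence of binding.

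The untreated libraries held 13598723 and 16660066 recovered reads and the others 17534889 to 50246162. Of the 52 libraries, 41 were closest to the other library of their own group. The RS libraries were closest to DXR day 16, and the smaller library of KCl day 6 was closest to DXR day 4. Fibroblast markers summed to between 95401 and 334405 normalised reads per library for the 8 of 11 markers recovered. Endothelial markers summed to 31 to 266 and immune markers to 11 to 423, while the epithelial list summed to 2638 to 6189, carried by keratins, with EPCAM at 23 or fewer. As a check of the arrested state, the proliferation genes were summed, a list of 15 that holds MKI67, TOP2A and CDK1. They came to 29859 and 27609 normalised reads in the untreated libraries and to 4141 and 2810 in RS. On KCl day 16 the sum was 13838 and 14034. In a bulk sample, fewer dividing cells and less RNA per cell cannot be told apart.

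Normalised read counts of the HMG genes were lower than in untreated cells in most groups. HMGB2 and HMGN2 were lower in all 25 comparisons, HMGB1 and HMGB3 in 24 each, and HMGN1 in 22. HMGN3 was lower in 8, HMGA1 in 6 and HMGA2 in 7, while HMGA2 was also higher in 4. In all, 145 of 200 comparisons of a gene with untreated cells passed an adjusted p of 0.05 by limma (72.5%), against 30.9% of all tested genes over the same 25 comparisons. Of these, 141 were lower and 4 higher, where 15.6% of all tested genes were lower and 15.3% higher. When each of the 52 libraries was left out in turn, 121 of the 145 calls passed every time. HMGB1, HMGB2, HMGB3, HMGN1 and HMGN2 had both libraries below both untreated libraries in all 25 groups, as did 2.01% of all tested genes (314 of 15598). In a single comparison, 31.9% of all tested genes on average had both libraries below both untreated libraries.

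At the end of the treatment 7 of the 8 genes were called after SDS, with 55.9% of all tested genes, 8 after KCl (59.3%) and 6 after DXR (40.6%). After SDS the count was 6 on day 1 (31.2% of all tested genes) and day 2 (20.1%), 5 on day 3 (21.5%), day 4 (24.8%), day 6 (31.5%) and day 8 (27.0%), and 6 on day 16 (44.2%). After KCl it was 5 on day 1 (17.3%), 3 on day 2 (5.78%), 6 on day 3 (15.7%), 5 on day 4 (20.9%), 6 on day 6 (27.5%) and day 8 (43.2%), and 5 on day 16 (17.0%). After DXR it was 6 on day 1 (30.4%) and day 2 (20.2%), 5 on day 3 (22.0%) and day 4 (25.6%), 6 on day 6 (36.9%), 8 on day 8 (37.5%) and 7 on day 16 (47.4%). In RS 7 were called, against 47.8%. The 4 higher calls, all of HMGA2, were on SDS days 1 and 2 and KCl days 1 and 3.

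**Figure D1:**
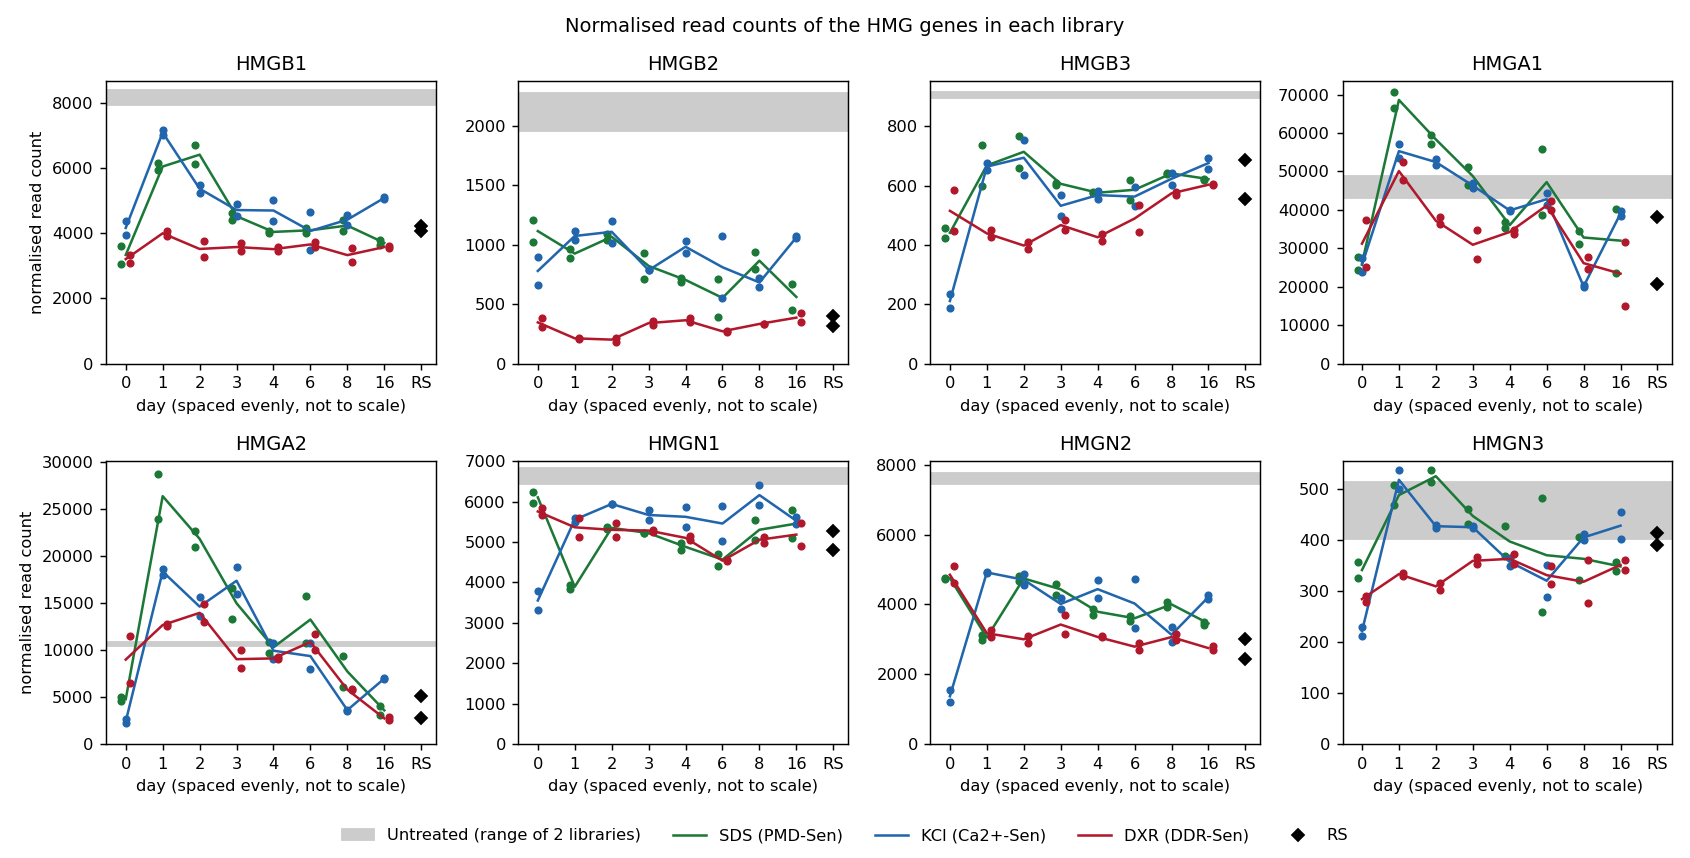
Normalised read counts (linear axis) of the 8 HMG genes by day of collection (days spaced evenly) for SDS, KCl and DXR, with points for single libraries, lines through group means, diamonds for RS and a grey band between the 2 untreated libraries. HMGB1, HMGB2, HMGB3, HMGN1 and HMGN2 lie under the band in all groups. HMGA2 has both libraries above it in 8 groups, 4 of them called higher, and is highest on SDS day 1.

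**Figure D2:**
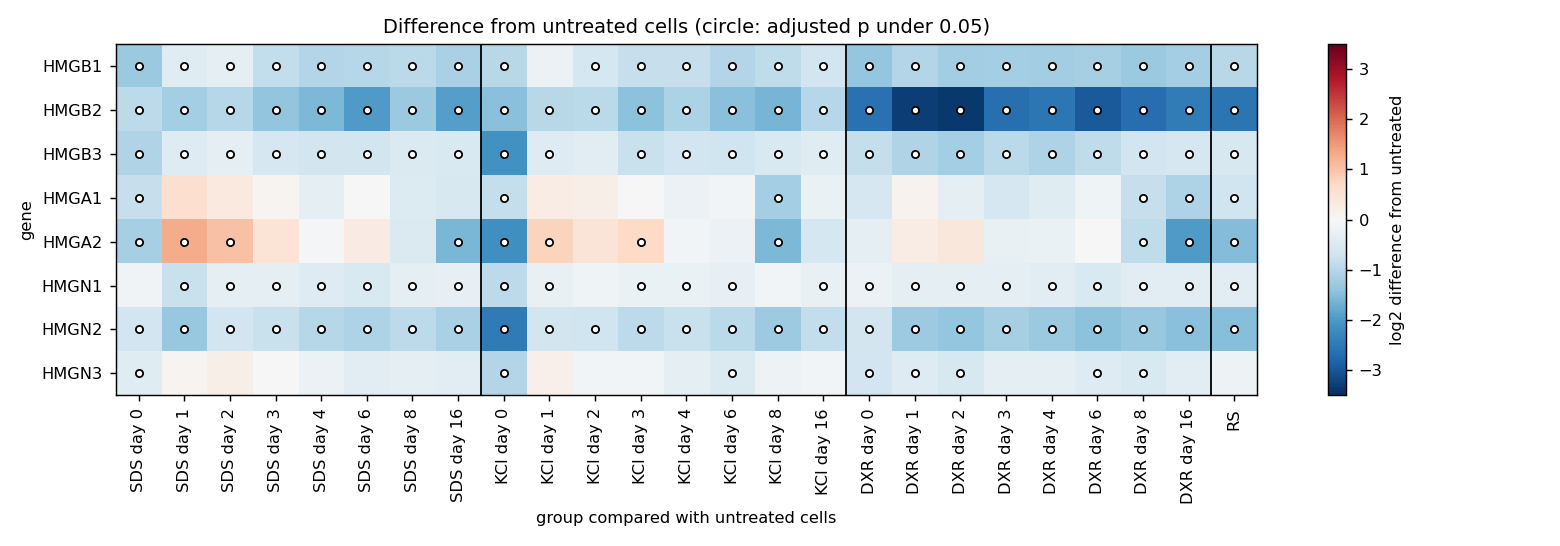
Log2 difference from untreated cells of each HMG gene in the 24 treated groups and RS, with the comparisons that passed an adjusted p of 0.05 marked. The lowest value for HMGB2 is -3.38, on DXR day 2, and the highest for HMGA2 is 1.30, on SDS day 1.

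HMGB1, the best known HMG box gene, was at 7931 and 8406 normalised reads in the untreated libraries. The 16 DXR libraries ranged from 3082 to 4083 with a median of 3561, and none overlapped the untreated pair. On DXR day 0 the counts were 3335 and 3082, a log2 difference from untreated cells of -1.35 ± 0.09 (SE, adjusted p = 5.24e-13), and on day 16 they were 3542 and 3614. HMGB1 thus stood between -1.03 and -1.35 on every DXR day. After SDS it was at 3047 and 3623 on day 0, rose to 5939 and 6161 on day 1 and 6704 and 6124 on day 2, and was back at 4637 and 4413 on day 3. The difference from untreated cells on SDS day 2 was -0.35 (adjusted p = 0.00882), and the call was lost without the smaller untreated library or the smaller SDS day 2 library, with an adjusted p of up to 0.111. After KCl the counts were 3947 and 4383 on day 0 and 7005 and 7180 on day 1. KCl day 1 was the 1 comparison in which HMGB1 did not pass the test, at a log2 difference of -0.20 (95% interval -0.40 to -0.01, adjusted p = 0.139), although both libraries lay under the untreated pair. In RS it was at 4235 and 4080, or -0.97 ± 0.09 (adjusted p = 4.90e-10). HMGB1 has 35 pseudogenes in the tables, which took 11.8% to 15.4% of the summed reads of gene and pseudogenes, and reads of near-identical copies may be split between them. With these reads added, the count of calls over the 8 genes stayed at 145.

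HMGB2, the HMG box gene tied to dividing cells, had the widest difference from untreated cells. It was at 2273 and 1960 normalised reads in the untreated libraries and at 185 to 426 in the 16 DXR libraries (median 330). The lowest group was DXR day 2, at 219 and 185, which was 10.4-fold lower than untreated cells (log2 difference -3.38 ± 0.22, adjusted p = 4.37e-13). RS was at 400 and 315 (-2.57, adjusted p = 5.56e-11), within the range of the DXR libraries. The SDS libraries ranged from 393 to 1205 (median 844) and the KCl libraries from 551 to 1201 (median 975), and no SDS or KCl library was above either untreated library. On SDS days 0 and 16 the log2 differences were -0.93 and -1.94, and on KCl days 0 and 16 they were -1.45 and -0.99. The libraries of some groups differed widely, with 1070 and 551 on KCl day 6, 713 and 393 on SDS day 6, and 673 and 450 on SDS day 16. Of the 25 calls, 24 held without any 1 library. The exception was KCl day 2 (-0.93, adjusted p = 0.0117), lost without the larger untreated library or the larger KCl day 2 library. The sum of the 15 proliferation genes, like HMGB2, was below both untreated libraries in every other library: it was 3865 to 12081 in the DXR libraries, 5070 to 21307 in the SDS libraries and 5604 to 19646 in the KCl libraries. By group means, KCl day 8 was the lowest KCl day in both the sum (6361 and 5604) and HMGB2 (721 and 645). KCl day 2 was the highest in both (16651 and 19646, with HMGB2 at 1017 and 1201). SDS day 2 had a sum of 21307 and 18430 with HMGB2 at 1043 and 1090. SDS day 0 had a sum of 5145 and 7557 with HMGB2 at 1024 and 1205. Among the DXR days, day 16 had the lowest sum (4035 and 3865) and the highest HMGB2 (426 and 347). The part of this sum in the HMGB2 result was not tested.

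HMGB3, an HMG box gene known from stem and progenitor cells, was at 916 and 896 normalised reads in untreated cells. Its lowest group was KCl day 0, at 186 and 235 (log2 difference -2.11 ± 0.12, adjusted p = 1.83e-15). On KCl day 1 it was at 652 and 677, and by day 16 at 694 and 657. In the DXR libraries it ranged from 387 to 605, with the low values on day 2 (409 and 387, -1.19, adjusted p = 4.10e-09) and 605 and 601 on day 16. SDS day 0 was at 424 and 457 and later SDS days at 553 to 768. RS was at 687 and 556 (-0.55, adjusted p = 0.000333). HMGB3 did not pass the test on KCl day 2 (-0.39, adjusted p = 0.0514), and 4 of its 24 calls were lost without some library: SDS days 1 and 2 and KCl days 1 and 16.

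HMGN2, a nucleosome-binding protein, was at 7776 and 7445 normalised reads in untreated cells and was lower in all 25 groups, and none of those calls was lost without any 1 library. Its lowest group was KCl day 0, at 1199 and 1534, 5.61-fold lower than untreated cells (log2 difference -2.49 ± 0.11, adjusted p = 9.74e-18). RS was at 3009 and 2439 (-1.49, adjusted p = 2.56e-12) and DXR day 16 at 2684 and 2810 (-1.47, adjusted p = 4.78e-12). In the SDS libraries it ranged from 2966 to 4823, with the lowest values on day 1, at 2966 and 3135 (-1.32, adjusted p = 5.29e-10), between 4742 and 4764 on day 0 and 4823 and 4665 on day 2. HMGN2 pseudogenes took 1.2% to 6.5% of the summed reads.

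HMGN1, its close relative, moved within a narrower range. It was at 6446 and 6829 in untreated cells and lowest on KCl day 0, at 3330 and 3778 (-0.90 ± 0.07, adjusted p = 4.49e-12), and SDS day 1, at 3947 and 3841 (-0.77, adjusted p = 4.35e-09). RS was at 4816 and 5275 (-0.40, adjusted p = 4.00e-05). HMGN1 did not pass the test on SDS day 0 (5971 and 6247), KCl day 2 or KCl day 8. Of its 22 calls, 15 held without any 1 library, and the 7 that did not were SDS day 16, KCl days 1, 3, 4, 6 and 16, and DXR day 0, with log2 differences of -0.29 to -0.20.

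HMGN3, a further nucleosome-binding relative, was at 402 and 514 normalised reads in untreated cells, a pair that differed more than those of the other HMGN genes. KCl day 0 was at 212 and 230 (-1.04 ± 0.16, adjusted p = 2.19e-06) and DXR day 0 at 278 and 291 (-0.67, adjusted p = 0.00120). These 2 calls held without any 1 library, and the other 6 (SDS day 0, KCl day 6 and DXR days 1, 2, 6 and 8) did not. RS, at 390 and 414, overlapped the untreated pair.

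HMGA2, the fetal AT-hook gene, went both ways. It was at 10410 and 10880 normalised reads in untreated cells. At the end of the treatment it was at 4516 and 4999 with SDS (-1.16 ± 0.23, adjusted p = 7.10e-05) and at 2200 and 2600 with KCl (-2.15, adjusted p = 1.76e-09), while the DXR libraries of day 0, at 11489 and 6465, lay on both sides of the untreated pair. A day later it was at 23993 and 28765 after SDS, 2.47-fold above untreated cells (log2 difference 1.30 ± 0.23, adjusted p = 5.96e-05), and at 22694 and 20986 on SDS day 2 (1.04, adjusted p = 0.00196). On KCl days 1 and 3 it was at 18025 and 18668 and at 15946 and 18798 (0.79 and 0.70, adjusted p = 0.0171 and 0.0352), and both calls were lost without any 1 of the 4 libraries compared. HMGA2 was then lower at the late times, with 4057 and 3091 on SDS day 16 (-1.59, adjusted p = 1.48e-06), 3647 and 3548 on KCl day 8 (-1.56, adjusted p = 2.11e-06) and 2861 and 2576 on DXR day 16 (-1.97, adjusted p = 2.33e-08). RS was at 5149 and 2731 (-1.50, adjusted p = 2.46e-06). KCl day 16, at 6915 and 6988, was not called (-0.61, adjusted p = 0.0635).

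HMGA1, the other AT-hook gene and by level per length the highest of the 8, was at 48816 and 43120 normalised reads in untreated cells, and its standard error was the largest of the 8 genes, with wide pairs in some groups (RS 38257 and 20713, SDS day 6 38709 and 55736). It was lower on SDS day 0, at 24458 and 27651 (-0.82 ± 0.24, adjusted p = 0.00449), on KCl day 0, at 23814 and 27575 (-0.84, adjusted p = 0.00337), and on KCl day 8, at 20359 and 19826 (-1.19, adjusted p = 0.000166). Its calls on DXR day 8 (-0.81), DXR day 16 (-1.07) and RS (-0.70) were each lost without 1 library: the larger untreated library or the larger DXR day 8 library for the first, the smaller DXR day 16 library for the second, and the larger untreated or the smaller RS library for RS. The reads of DXR day 16 (31751 and 15067) were split between the libraries with the least certainty, although their sum was fixed. SDS day 1 was at 66466 and 70740, above both untreated libraries, without passing the test (0.58).

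**Figure D3:**
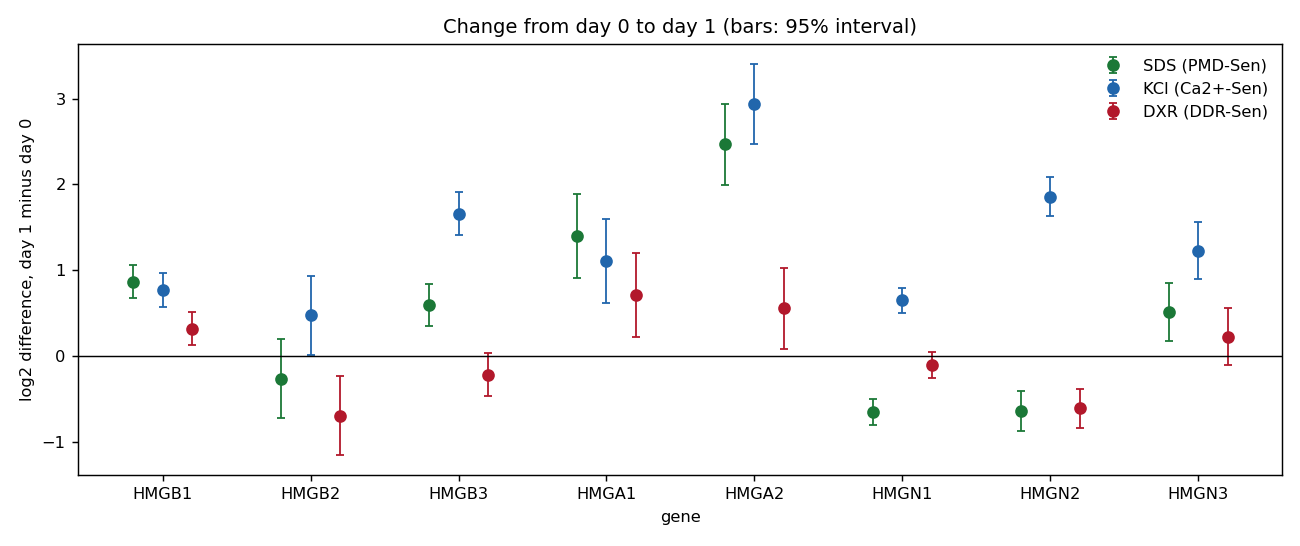
Log2 difference between day 1 and day 0 of the 8 HMG genes for SDS, KCl and DXR with 95% intervals, where values above 0 are higher on day 1. HMGN2 is at -0.64 for SDS, 1.86 for KCl and -0.61 for DXR, and HMGA2 at 2.47, 2.94 and 0.55.

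The first day after the wash brought most of these genes up after SDS and KCl. Over the 6 comparisons within an inducer, day 1 with day 0 and day 16 with day 1, 30 of 48 passed the test (62.5%), against 41.9% of all tested genes, of which 21.2% were higher and 20.7% lower on the later day. From day 0 to day 1, 7 genes rose and 0 fell after KCl, where 59.9% of all tested genes were called, the exception being HMGB2 (0.48, adjusted p = 0.0683). After SDS, 5 rose and 2 fell, against 56.8%, and after DXR 2 rose and 2 fell, against 21.3%. HMGA2 rose 5.53-fold after SDS (adjusted p = 9.29e-11) and 7.67-fold after KCl (adjusted p = 1.76e-12), and its DXR value was 0.55 (95% interval 0.08 to 1.02, adjusted p = 0.0867). HMGA1 rose 2.64-fold after SDS, 2.16-fold after KCl and 1.63-fold after DXR, the last with an adjusted p of 0.0332 that was lost without the smaller DXR day 0 library or either DXR day 1 library. HMGB1 rose by 0.86 on the log2 scale after SDS and 0.77 after KCl, and by 0.32 after DXR (adjusted p = 0.0142), a call that was lost without the smaller DXR day 0 or the smaller DXR day 1 library. HMGN3 rose by 1.23 after KCl (adjusted p = 1.10e-07) and by 0.51 after SDS (adjusted p = 0.00790, lost without the larger SDS day 0 or the larger SDS day 1 library). The other HMGN genes went down after SDS: HMGN2 fell by 0.64 on the log2 scale after SDS and by 0.61 after DXR and rose by 1.86 after KCl, while HMGN1 fell by 0.65 after SDS and rose by 0.65 after KCl. From day 1 to day 16, HMGA2 fell 7.42-fold after SDS (adjusted p = 1.19e-11), 2.64-fold after KCl and 4.66-fold after DXR, HMGA1 fell by 1.15 on the log2 scale after SDS and by 1.19 after DXR, and HMGB1 fell by 0.71 after SDS and 0.48 after KCl. Here 5 genes fell and 1 rose after SDS (53.3% of all tested genes called), 2 fell after KCl (27.6%) and 2 fell and 2 rose after DXR (32.4%). The genes that rose were HMGN1 after SDS (0.48, adjusted p = 1.65e-06), and HMGB3 (0.46, adjusted p = 0.00381) and HMGB2 (0.85, adjusted p = 0.00376) after DXR, the last lost without the larger DXR day 16 library.

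Between inducers on the same day, which does not involve the untreated libraries, 72 of 192 comparisons of a gene passed the test (37.5%), against 18.1% of all tested genes (9.31% higher and 8.76% lower in the first inducer named), and 44 of the 72 held without any 1 library. For SDS and DXR, 23 of 64 were called, and 21 of those were higher after SDS. The members called were 2 of 8 on day 0, where 57.0% of all tested genes were called, 6 on day 1 (36.1%), 7 on day 2 (23.1%), 4 on day 3 (7.67%), 1 on day 4 (0.846%), 1 on day 6 (1.28%), 2 on day 8 (1.87%) and 0 on day 16 (5.31%). For KCl and DXR, 33 of 64 were called, 28 of them higher after KCl. They were 6 on day 0 (61.1%), 5 on day 1 (25.8%), 4 on day 2 (10.7%), 3 on each of days 3, 4 and 6 (5.01%, 2.98% and 4.74%), 4 on day 8 (22.7%) and 5 on day 16 (28.2%). For SDS and KCl, 16 of 64 were called, 7 of them on day 0 (64.1%) and 2 on day 1 (19.9%), 0 on days 2, 3, 4 and 6 (11.6%, 0.199%, 0.0641% and 0.224%), 4 on day 8 (19.6%) and 3 on day 16 (23.8%).

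**Figure D4:**
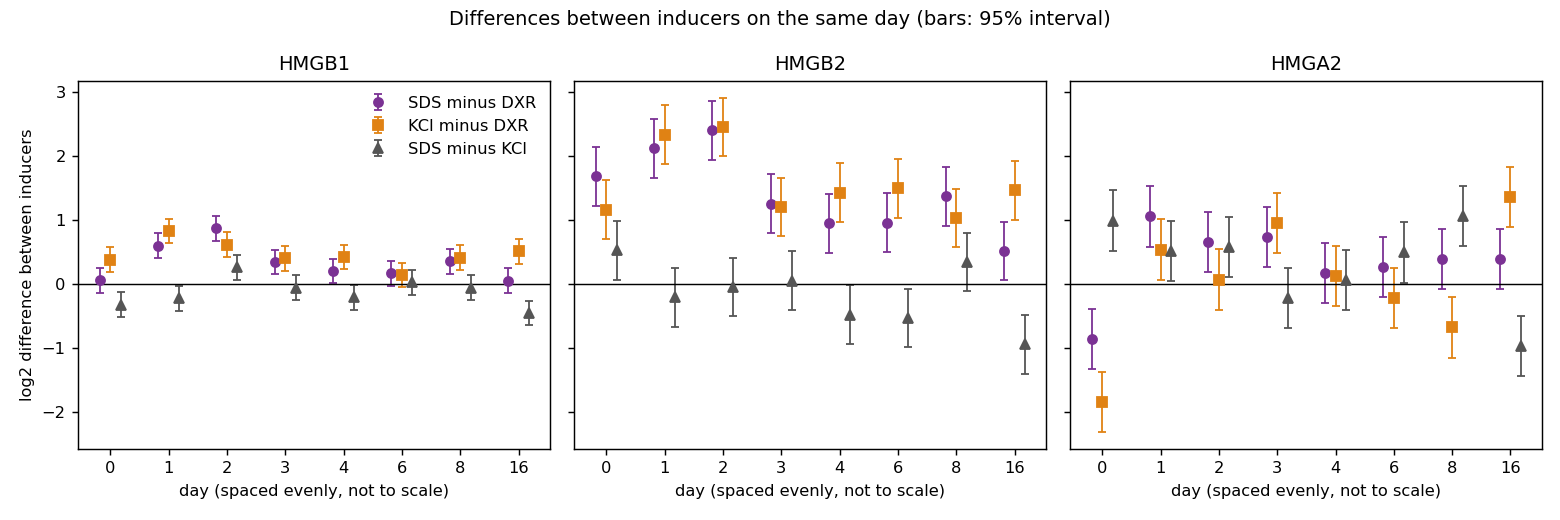
Log2 difference between inducers on the same day (SDS minus DXR, SDS minus KCl, KCl minus DXR) for HMGB1, HMGB2 and HMGA2 with 95% intervals. The HMGB2 differences from DXR reach 2.40 for SDS and 2.45 for KCl on day 2, and the HMGB2 intervals of SDS minus KCl include 0 on days 1, 2, 3 and 8.

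HMGB2 was the gene with the most calls between inducers. It was higher after KCl than after DXR on all 8 days, by log2 differences of 1.03 to 2.45, and these 8 calls held without any 1 library. It was higher after SDS than after DXR on 7 days, by 0.94 to 2.40, and on days 4 and 6 that call was lost without some library. On day 16 the difference was 0.52 (95% interval 0.06 to 0.97, adjusted p = 0.186). On day 2 the SDS libraries held 1043 and 1090 normalised reads, the KCl libraries 1017 and 1201 and the DXR libraries 219 and 185. Between SDS and KCl, HMGB2 was called on day 0 (0.53, adjusted p = 0.0416, lost without the smaller SDS or the larger KCl library) and on day 16, where it was lower after SDS (-0.95, adjusted p = 0.00239, lost without the smaller SDS day 16 library). On days 2 and 3 the 95% intervals of that difference ran from -0.51 to 0.41 and from -0.41 to 0.51.

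HMGB1 was higher after SDS than after DXR on day 1 (0.60, adjusted p = 8.02e-06) and day 2 (0.87, adjusted p = 2.37e-08), and its calls on days 3 and 8 were lost without most of the libraries compared. It was higher after KCl than after DXR on 7 of 8 days, with 0.83 on day 1 (adjusted p = 5.48e-08), 0.61 on day 2 (adjusted p = 1.93e-05) and 0.51 on day 16 (adjusted p = 0.000132), while the calls on days 3, 4 and 8 were lost without some library. The day without a call was day 6, when the KCl libraries were at 4658 and 3488. On day 16 it was lower after SDS than after KCl (-0.46, adjusted p = 0.000669), with counts of 3785 and 3630 against 5064 and 5108.

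HMGB3 was higher after SDS than after DXR on day 1 (0.60, adjusted p = 0.000220) and day 2 (0.84, adjusted p = 3.80e-06), and higher after KCl than DXR on the same days (0.60 and 0.80). On day 0 it was lower after KCl than after DXR by 1.28 on the log2 scale (adjusted p = 9.34e-11).

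HMGA2 was lower after KCl than after DXR on day 0 (-1.85, adjusted p = 3.00e-08) and higher on day 16 (1.36, adjusted p = 3.93e-05). Its call for KCl minus DXR on day 8 (-0.68, adjusted p = 0.0313) was lost without any 1 of the 4 libraries, and that on day 3 (0.95, adjusted p = 0.0116) without the smaller KCl or the smaller DXR library. It was lower after SDS than after DXR on day 0 (-0.86, adjusted p = 0.00197, lost without the larger DXR day 0 library) and higher on day 1 (1.05, adjusted p = 0.000539), and the higher calls on days 2 and 3 (0.65 and 0.73, adjusted p = 0.0396 and 0.0467) were lost without any 1 library compared. Between SDS and KCl it was higher after SDS on day 0 (0.99, adjusted p = 0.000382) and day 8 (1.06, adjusted p = 0.00174) and lower on day 16 (-0.97, adjusted p = 0.00237), the last 2 lost without the smaller SDS library of that day. HMGA1 had 3 calls between inducers, and each was lost without some library.

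HMGN2 on day 0 separated KCl from the other inducers, at 1199 and 1534 normalised reads against 4742 and 4764 for SDS (1.81, adjusted p = 4.66e-15) and 4605 and 5097 for DXR (-1.84 for KCl minus DXR, adjusted p = 5.22e-15). HMGN1 on day 0 did likewise, at 3330 and 3778 against 5971 and 6247 for SDS (0.78, adjusted p = 5.64e-11). On day 1 HMGN2 was lower after SDS than after KCl (-0.69, adjusted p = 5.12e-05), with a 95% interval for SDS minus DXR of -0.29 to 0.17, and HMGN1 was lower after SDS than after KCl (-0.51, adjusted p = 8.83e-06) and than after DXR (-0.46, adjusted p = 8.22e-06). After day 0 the HMGN2 calls for KCl minus DXR went the other way, with KCl higher on days 1, 2, 4, 6 and 16. The log2 differences were 0.63, 0.65, 0.53, 0.51 and 0.62, and the calls on days 4 and 6 were lost without some library. HMGN2 was also higher after SDS than after DXR on days 2 and 3 (0.66 and 0.38), the latter lost without some library. HMGN3 was higher after SDS than after DXR on day 2 (0.76, adjusted p = 0.000806).

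Day 16 was compared with RS to ask how the late induced cells differ from cells senescent by division. The sum of the 15 proliferation genes on day 16 was 13838 and 14034 after KCl, 7536 and 5070 after SDS and 4035 and 3865 after DXR. In RS it was 4141 and 2810. The part of this sum in the differences from RS was not tested. Of 24 comparisons, 6 passed the test (25%), against 17.8% of all tested genes. All 6 were higher than RS, where 8.51% of all tested genes were higher and 9.26% lower. After KCl, 4 genes were called (29.3% of all tested genes): HMGB2, at 1054 and 1071 against 400 and 315 (1.58, adjusted p = 2.27e-06), HMGN2, at 4272 and 4152 against 3009 and 2439 (0.64, adjusted p = 5.82e-05), HMGA2 (0.89, adjusted p = 0.00350, lost without the smaller RS library) and HMGB1 (0.29, adjusted p = 0.0189, lost without the smaller RS library or either KCl library). After SDS, 2 were called (20.3%), HMGB2 (0.63, adjusted p = 0.0447) and HMGN2 (0.35, adjusted p = 0.0266), and both were lost without the smaller RS library or the larger SDS day 16 library. The HMGN2 call was also lost without the smaller SDS day 16 library. After DXR, 0 were called (3.65%), and the 95% interval for HMGB2 was -0.34 to 0.57. Without the smaller RS library the count of calls was 3, and with only the compared groups in the fit it was 1.

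Levels between genes were compared per kilobase of exon, as normalised reads per kb. HMGA1 was highest in all 26 groups, at 19754 in untreated cells, followed there by HMGN2 (3033), HMGN1 (1301), HMGB1 (1058), HMGB2 (763), HMGA2 (691), HMGN3 (451) and HMGB3 (228). HMGB2 took the lowest place in RS and on DXR days 0, 1, 2, 6, 8 and 16, and HMGB3 in the other groups. The mean of the highest group was 11.0 times that of the lowest for HMGA2 (SDS day 1 and KCl day 0), 10.5 times for HMGB2 (untreated and DXR day 2), 5.57 times for HMGN2 and 4.30 times for HMGB3 (both untreated and KCl day 0), and 1.87 times for HMGN1. Between most neighbours in the order of groups the libraries overlapped, in 18 to 22 of the 25 steps for each gene.

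Across the 26 group means the levels of HMGA1 and HMGA2 had a Pearson correlation of 0.906, HMGN1 and HMGN2 of 0.770 and HMGB1 and HMGB2 of 0.737. Other pairs of the same family were lower, with HMGB2 and HMGB3 at 0.440 and HMGN1 and HMGN3 at 0.334. Pairs from different families ranged from -0.07 (HMGA1 and HMGN1) to 0.782 (HMGB3 and HMGN3), with HMGB1 and HMGN3 at 0.740 and HMGB3 and HMGN2 at 0.733. The groups share the same cell line and scaling, and these values are a description. For each member, the genes with the most similar group means among genes with a mean of at least 100 are given with their correlation. For HMGB1 they were TIMELESS (0.918), C18orf54 (0.912) and RFC2 (0.911), and for HMGB2 they were MCM7 (0.954), WDR62 (0.952) and CDKN3 (0.950). TIMELESS, RFC2 and MCM7 act in DNA replication. For HMGB3 they were ERLIN1 (0.920), RHNO1 (0.906) and HMGXB4 (0.886). For HMGA1 they were MFSD2B (0.967), S100A16 (0.934) and the pseudogene PPP1R14BP3 (0.926), and for HMGA2 ITPA (0.954), GRAMD1B (0.945) and ELOVL1 (0.929). For HMGN1 they were ALDH7A1 (0.846) and NFX1 (0.827), after 1 gene with a higher value that is not named here. For HMGN2 they were DUT (0.914), an enzyme of nucleotide metabolism, AXL (0.908) and PPP1R35 (0.871), and for HMGN3 C3orf14 (0.863), SMS (0.862), spermine synthase, and DCK (0.859).

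Genes around the HMG proteins were counted in lists, and list medians are given for RS, where the median log2 difference from untreated cells was 0.02 over all tested genes and -0.84 over the 8 HMG genes. The counts of each list stand beside the share of all tested genes called in either direction. That share was 47.8% in RS, 44.2% on SDS day 16, 17% on KCl day 16 and 47.4% on DXR day 16. Of 22 other HMG genes and relatives tested, 2 were higher and 10 lower in RS (median -0.18), 4 and 8 on SDS day 16, 1 and 4 on KCl day 16, and 2 and 11 on DXR day 16. SSRP1, an HMG box subunit of the histone chaperone FACT, was at 4456 and 4375 normalised reads in untreated cells and 1841 in RS (-1.27, adjusted p = 1.15e-13) and was lower in 22 of 25 comparisons, and TOX in 20 (-1.08 in RS, adjusted p = 0.0119). HBP1 was called in 0 of 25, with 97 and 127 in untreated cells and libraries of 27 and 987 in RS (0.56 ± 1.56, adjusted p = 0.795). Of the receptors, partners and exporters of HMGB1, 9 of 17 were tested and AGER, TLR2, TLR4 and TLR9 were among those under the filter. In RS 1 was higher and 4 lower (median -0.54). PARP1, an enzyme that modifies HMGB1, was lower in all 25 comparisons (-1.16 in RS, adjusted p = 1.04e-13), and CXCL12, a chemokine that binds HMGB1, in 20 (-1.19 in RS, adjusted p = 0.00316), and NFKB1 in 14. Of the regulators and targets of HMGA2, 13 of 15 were tested, without LIN28A and LIN28B, and 1 was higher and 9 lower in RS (median -0.49). CCNA2, the cyclin A gene, was lower in 24 of 25 (-3.53 in RS, adjusted p = 1.15e-13), as was E2F1 (-1.13 in RS), and ARID3B in 19. CCNA2 and E2F1 are also on the list of 15 proliferation genes, so the 2 lists are not independent.

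Of the 15 heterochromatin factors of senescence, 0 were higher and 9 lower in RS (median -0.41), 0 and 9 on SDS day 16, 0 and 6 on KCl day 16, and 0 and 10 on DXR day 16. Among all tested genes, 47.8%, 44.2%, 17% and 47.4% were called in either direction in these 4 groups, in the same order. LMNB1, the lamin B1 gene, was lower in all 25 comparisons, at 1672 and 1422 normalised reads in untreated cells and 43 in RS (-5.25 ± 0.30, adjusted p = 6.08e-15). MACROH2A2, a histone variant of senescence foci, was lower in 19 and at 0.23 in RS (adjusted p = 0.204), and SUV39H1, a heterochromatin methyltransferase, was lower in 16. Among the linker histones, the counterparts of the HMGN proteins on the nucleosome, H1-2 was higher in all 25 comparisons, at 553 and 729 in untreated cells and 3235 in RS (2.34 ± 0.14, adjusted p = 3.18e-14), while H1-10 was higher in 1 and lower in 19. Of the 15 proliferation genes, 15 were lower in RS (median log2 difference -4.48), 15 on SDS day 16 (-2.69), 12 on KCl day 16 (-1.10) and 15 on DXR day 16 (-4.11).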

How the data were processed

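WI-38 RNA-seq libraries were prepared and sequenced by the authors, with Trim Galore, HISAT2, HTSeq, featureCounts and DESeq2 and builds GRCh38 and hg38 named in the submitters' processing notes. Versions are not given in the sources used here. The deposited tables hold, for each gene, a mean of normalised counts over the 2 treated and 2 untreated libraries (used as a signal value) and the authors' own log2 fold change, its standard error, test statistic, p-value and adjusted p-value. The 52 files hold 25 distinct tables, and the files of the untreated samples hold the RS table.

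The authors' fold changes, tests and p-values were not used as results. Because each deposited mean is a sum of whole reads divided by library size factors, the reads of each of the 52 libraries were recovered from it. The size factors came from genes with 1 read in 1 library, and the deposited log2 fold change and standard error only bounded the search and chose between several possible pairs. Of 59408 genes listed, 46275 were above 0 and 46234 were recovered. The 41 left out, COL1A1, COL1A2, FN1 and ACTB among them, carried 10.2% to 12.0% of the summed means. Of 764055 entries, 99.04% had 1 whole-number pair, as did 180 of 200 entries of the HMG genes. Most of the other 20 were of HMGA1, on all DXR days and all SDS days except day 2. HMGA2 on DXR day 1 had 182 possible pairs. In these entries the split between the 2 libraries rests on the deposited log2 fold change and standard error. The number of other per-sample columns was 0. No count model was fitted, since no file was declared as counts.

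Reads were scaled by median-of-ratios size factors over all libraries. The test was limma (version 3.58.1, R 4.3.3) with a mean-variance trend on log2(normalised count + 1), two-sided, with all 26 groups in 1 fit without covariates, for 15598 genes with a mean of at least 10. It was adjusted after Benjamini-Hochberg within each of 58 contrasts and called at 0.05, and a fold change is on this log2 scale. The script was tested on simulated data. The authors' log2 values were not printed. Alternatives were other scalings, pseudocounts, filters, voom weights, fits of the compared groups alone, a minimum log2 difference of 1, pseudogene reads added and libraries left out. All 8 HMG genes were named, with up to 3 genes per member of highest correlation over the group means and the 3 genes per list with the largest median difference over the 25 comparisons. For the linker histones, 1 item and the list's counts are not reported here. The members and lists were chosen with earlier results of these data known. Promoter sequences are from RefSeq. Intervals cover the spread between libraries.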

Additional observations from a re-analysis of the deposited data

Results flagged for a closer look

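The results here were noted because the effect differed between inducers by a test of the difference itself. Groups held 2 libraries, so no library was tested as standing apart within its group. Of 64 comparisons of an HMG gene on a day, 23 were called for SDS minus DXR, 16 for SDS minus KCl and 33 for KCl minus DXR. Of all tested genes, 18.1% were called over these comparisons together, with 0.0641% to 64.1% in a single comparison. The highest share was for SDS minus KCl on day 0, where 7 of the 16 calls fell.

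The change from day 0 to day 1 was compared between inducers in a contrast chosen after seeing the data. It differed between SDS and KCl for 5 of 8 genes (54.4% of all tested genes), between SDS and DXR for 4 (44.7%) and between KCl and DXR for 7 (47.8%). In 3 cases both inducers had a called change in opposite directions. HMGN1 fell by 0.65 on the log2 scale after SDS and rose by 0.65 after KCl, a difference of -1.30 ± 0.10 (SE, adjusted p = 3.99e-12 by limma). HMGN2 fell by 0.64 after SDS and rose by 1.86 after KCl, a difference of -2.50 ± 0.16 (adjusted p = 2.53e-14), and for KCl against DXR, where it fell by 0.61, the difference was 2.47 ± 0.16 (adjusted p = 1.07e-13). For HMGA2 the rise after KCl exceeded that after DXR by 2.38 ± 0.33 and that after SDS exceeded that after DXR by 1.91 ± 0.33.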

How the results depend on the processing

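Counts of calls are given for the 4 kinds of comparison in the order with untreated cells, between inducers, within an inducer and with RS (145, 72, 30 and 6). With a minimum log2 difference of 1 they were 62, 21, 12 and 1. With only the compared groups in the fit the count with RS was 1. Leaving out libraries gave 95 to 155, 28 to 81, 20 to 32 and 1 to 7. The lowest of these came from leaving out 1 library of every treated group, when the spread rests on the untreated pair alone. Without the smaller RS library the count with RS was 3. Library totals, upper-quartile scaling, pseudocounts of 0.5 and 5, filters, voom weights and added pseudogene reads kept every count within 1.5 times. With no filter the counts were 137, 61, 28 and 4. Of 7952 single gene results under the alternatives, 614 lost and 96 gained a call, and 0 called values turned direction. Upper-quartile scaling over a common gene set moved the median of all genes by -0.16 to 0.12, and the share of higher among called genes in RS from 50.8% to 33.1%. With the upper quartile taken over a gene set that differs between libraries (added after seeing the data), the median of all genes moved by 0.13 to 0.85. The calls with untreated cells fell to 80, and 26 of the 145 called values turned direction. After that shift was subtracted 0 did, but the subtraction nearly restores the main scaling, so this is no separate check. The direction of those 26 values thus depends on the scaling chosen. No paired analysis was possible because the recovered libraries could not be matched to the replicate numbers of the labels. With 2 libraries a group, differences under the intervals printed could not be resolved.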
